A study of Mus musculus with 8 samples.

Results

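Transcripts of 8 receptors for systemic hormones and sympathetic signals were measured in bone marrow mesenchymal stem and progenitor cells (MSPCs), the perivascular stromal cells of the hematopoietic niche. The 8 genes, Nr3c1, Pth1r, Adrb3, Esr1, Ghr, Insr, Vdr and Thra, were chosen by symbol from the 52636 genes of the count table and found by Ensembl identifier. All 8 had a count in every library and were among the 14598 genes tested. RNA came from 4 CTR mice (Flk2-cre+ Cxcr4fl/+, named CTL in the sample labels) and 4 cKO mice (Flk2-cre+ Cxcr4fl/fl), all C57BL/6 and 6 weeks old by the labels, with 1 library per mouse. The methods give an older age range for all mice, and which age applies to these libraries is not known. Both groups carried Flk2-cre, which deletes floxed Cxcr4 in multipotent hematopoietic progenitors and their progeny and not in MSPCs, so that cKO MSPCs come from a niche whose blood cells, not its stroma, lack Cxcr4. Flk2-cre sits on the Y chromosome, so mice that carry it are male. A GFP allele at Kitl was used to sort the cells, as PDGFRα+ SCF-GFP+ cells negative for CD45, Ter119, CD31 and CD144. The titles of the samples also hold a number, which was 27 and 32 in CTR4 and CTR2, 26 and 31 in cKO4 and cKO2, 71 and 78 in CTR3 and CTR1, and 67 and 86 in cKO3 and cKO1. The labels do not say what this number stands for, and each of its ranges (26 to 32 and 67 to 86) holds 2 libraries of each genotype.

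Nr3c1, Esr1, Vdr and Thra encode ligand-activated transcription factors for glucocorticoids, estrogen, vitamin D and thyroid hormone. Nr3c1 and Esr1 bind DNA as homodimers, whereas Vdr and Thra pair with retinoid X receptors. Pth1r and Adrb3 encode G protein-coupled receptors that raise cAMP through the stimulatory G protein, Ghr a cytokine-type receptor that signals through Jak2 and Stat5, and Insr a receptor tyrosine kinase. In bone marrow, Pth1r is known for parathyroid hormone action on stromal and osteoblast lineage cells, and Adrb3 for the sympathetic control of Cxcl12 in the niche.

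The sequences around the starts of Vdr, Ghr and Pth1r are shown because Pth1r and Ghr had the highest levels per length of the 8 genes and Vdr had the largest difference of the 8 between the ranges of title numbers. They run from 250 bases before to 50 bases after the start, come from RefSeq on GRCm38.p6 and are given 5′ to 3′ on the strand of the gene, with GC boxes (GGGCGG on either strand, thus also CCGCCC) in capitals. Of the 8 genes, 4 had such a sequence, with 3 starts for Pth1r, 2 each for Esr1 and Ghr and 1 for Vdr. Vdr is at chr15:97908247-97908546, the Ghr start shown at chr15:3583303-3583602 and the Pth1r start shown at chr9:110742561-110742860, all on the minus strand.
Vdr: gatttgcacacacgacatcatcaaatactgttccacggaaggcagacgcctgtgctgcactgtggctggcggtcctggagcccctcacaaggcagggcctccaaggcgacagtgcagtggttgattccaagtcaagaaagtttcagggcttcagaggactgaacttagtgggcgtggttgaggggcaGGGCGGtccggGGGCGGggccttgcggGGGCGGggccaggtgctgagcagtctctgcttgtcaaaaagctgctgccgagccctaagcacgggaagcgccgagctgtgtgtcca
Ghr: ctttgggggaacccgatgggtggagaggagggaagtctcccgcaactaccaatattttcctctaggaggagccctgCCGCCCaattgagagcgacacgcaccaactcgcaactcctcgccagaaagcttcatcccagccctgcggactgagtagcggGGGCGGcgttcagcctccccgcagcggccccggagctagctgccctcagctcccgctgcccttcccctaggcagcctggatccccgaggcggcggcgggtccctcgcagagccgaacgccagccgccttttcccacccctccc
Pth1r: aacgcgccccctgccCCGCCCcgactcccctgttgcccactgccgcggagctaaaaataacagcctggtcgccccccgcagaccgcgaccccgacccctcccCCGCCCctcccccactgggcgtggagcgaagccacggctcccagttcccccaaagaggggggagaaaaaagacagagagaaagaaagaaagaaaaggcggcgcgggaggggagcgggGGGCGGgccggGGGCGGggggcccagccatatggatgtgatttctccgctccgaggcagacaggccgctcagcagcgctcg

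GC boxes were found 3 times at the start of Vdr, 4 times at the Pth1r start shown and 2 times at the Ghr start shown. The other starts of Pth1r held 1 and 0, the other start of Ghr held 0, and both starts of Esr1 held 0. Among 32851 mouse promoters of the same length outside chromosome 18, 35.7% held at least 1 GC box and 10.7% held 3 or more. The cAMP response element TGACGTCA (in 1.79% of promoters) and the nuclear receptor half-site AGGTCA (16.3%) matched on neither strand of the 8 starts. These matches describe letters and are not measured binding.

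The sorted libraries carried the markers of MSPCs. Cxcl12 had the highest mean of the MSPC markers, and the summed level of 8 markers was 52754 to 65012 CPM (counts normalized to library size, scaled by the TMM method) in CTR and 53952 to 65707 CPM in cKO. Of the genes used for sorting, Pdgfra was at 621 ± 52.8 and 670.1 ± 102 CPM and Kitl at 719.7 ± 163 and 699 ± 134 CPM in CTR and cKO (SD, n = 4). Ptprc, Pecam1 and Cdh5, which encode CD45, CD31 and CD144, had at most 32, 52 and 20 counts in any library. Cxcr4 had 0 to 19 counts, so that the deleted gene does not check the genotype labels in these cells. Osteoblast markers summed to 7972 to 14012 CPM, nearly all of it Ibsp (mean 10665 CPM). Hematopoietic markers summed to 56.5 to 241 CPM with Cd3e at 0. Endothelial markers summed to 5.04 to 14.2 CPM with Tek at 0, smooth muscle markers to 43.8 to 77.1 CPM, Schwann cell markers to at most 6.36 CPM and mature adipocyte markers to at most 2.58 CPM with Cidea and Ucp1 at 0. Total counts were 31047344 to 38216877 per library. The number of genes with a count was 19363 to 20684 in the libraries with title numbers 26 to 32 and 18366 to 18750 in those with 67 to 86.

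Per length, Pth1r and Ghr were the leading receptors among the 8. Averaged over all 8 libraries and divided by the merged exon length, the level of Pth1r was 115 CPM per kb (rank 311 of the 14598 genes) and that of Ghr 77.4 CPM per kb (rank 492). Thra followed at 32.2, Vdr at 16.4, Nr3c1 at 15.4, Esr1 at 8.08, Adrb3 at 4.94 and Insr at 2.83 CPM per kb, the last at rank 8984. With merged exon lengths, some neighbors in this order were clearly apart and others were not. Ghr lay above Thra, and Nr3c1 above Esr1, in 8 of 8 libraries and with no overlap of their ranges. Pth1r lay above Ghr in 8 of 8 libraries, although the ranges over libraries overlapped. Vdr and Nr3c1 did not differ beyond their spread, with Vdr above in 4 of 8 libraries. Thra lay above Vdr and Esr1 above Adrb3 in 7 of 8, and Adrb3 above Insr in 6 of 8. With the length of the longest transcript in place of merged exons, Ghr stood at 168 and Pth1r at 146 CPM per kb and these 2 changed places. Nr3c1 at 18.4 and Esr1 at 17.4 CPM per kb then lay close, so that their distance depended on the length used.

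**Figure D1:**
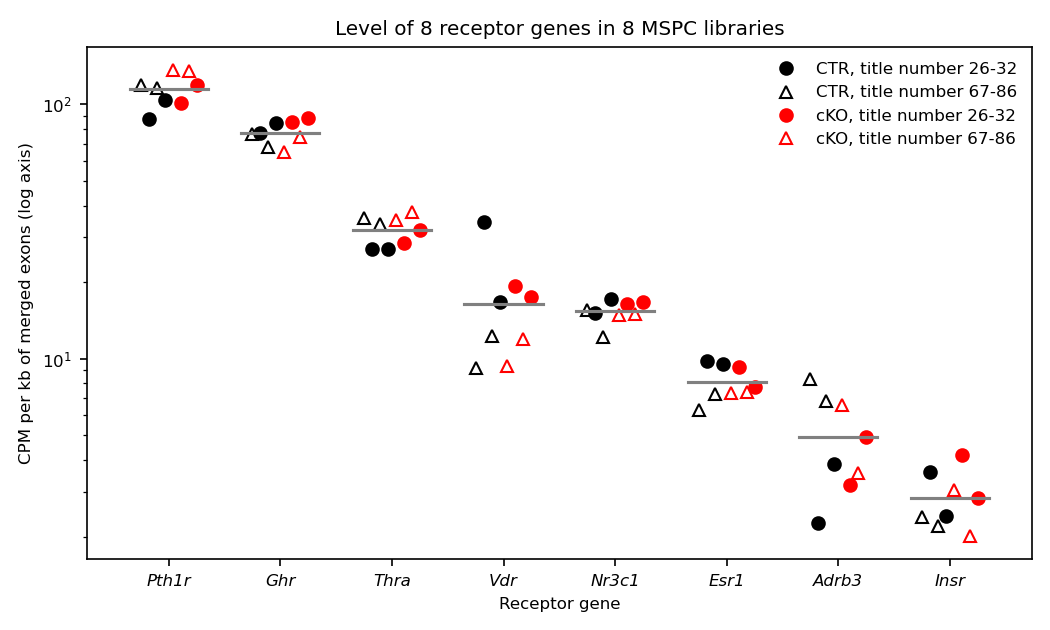
Level of each receptor in each MSPC library, in TMM-scaled CPM per kb of merged exons on a log axis. Points are single libraries (black CTR, red cKO, filled circles for title numbers 26 to 32 and open triangles for 67 to 86) and gray lines are means over 8 libraries, which run from 115 for Pth1r to 2.83 for Insr.

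The spread among libraries differed between the receptors. Vdr and Adrb3 varied most, with the highest library 3.77 times the lowest for Vdr and 3.69 times for Adrb3. The SD of log2 CPM over the 8 libraries was 0.63 for Vdr and 0.64 for Adrb3, both at the 96.7 percentile of tested genes whose mean CPM was 10 or more. Insr had an SD of 0.36 (percentile 81.3). The SDs of Esr1 (0.23), Pth1r (0.22), Thra (0.19), Ghr (0.16) and Nr3c1 (0.16) lay between the 20.7 and 50.3 percentiles.

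The receptor families were represented unevenly. Of the 22 closest relatives listed, 13 had a count in every library, 4 were at 0 in some libraries and 5 (Adrb1, Adra1a, Pgr, Pth2r and Prlr) were at 0 in all 8. Among the adrenergic receptors, Adra2a, an α2 receptor coupled to the inhibitory G protein, stood at 10.01 CPM per kb and lay above Adrb3 in 7 of 8 libraries. Adra1b had 0 to 120 counts and Adra1d 0 to 9, while Adra2b (0.973 CPM per kb) and Adra2c (0.796) had counts in every library.

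Thra was the leading thyroid hormone receptor, 37.2 to 539 times its paralog Thrb per length, which had 15 to 246 counts. Nr3c1 lay 6.76 to 17.0 times above the mineralocorticoid receptor Nr3c2 (1.69 CPM per kb). Esr1 lay above Esr2 in 8 of 8 libraries, and Esr2 was at 0 in 3. Insr and the receptor for insulin-like growth factors, Igf1r (2.00 CPM per kb), were close, with Insr above by 1.12 to 1.67 times in 8 of 8 libraries. Insrr had 0 to 47 counts. The oxysterol receptors Nr1h2 (21.4) and Nr1h3 (13.8) and the retinoic acid receptors Rara (14.1) and Rarg (14.1 CPM per kb) stood near Vdr and Nr3c1, and Rarb was lower at 1.94 CPM per kb.

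**Figure D2:**
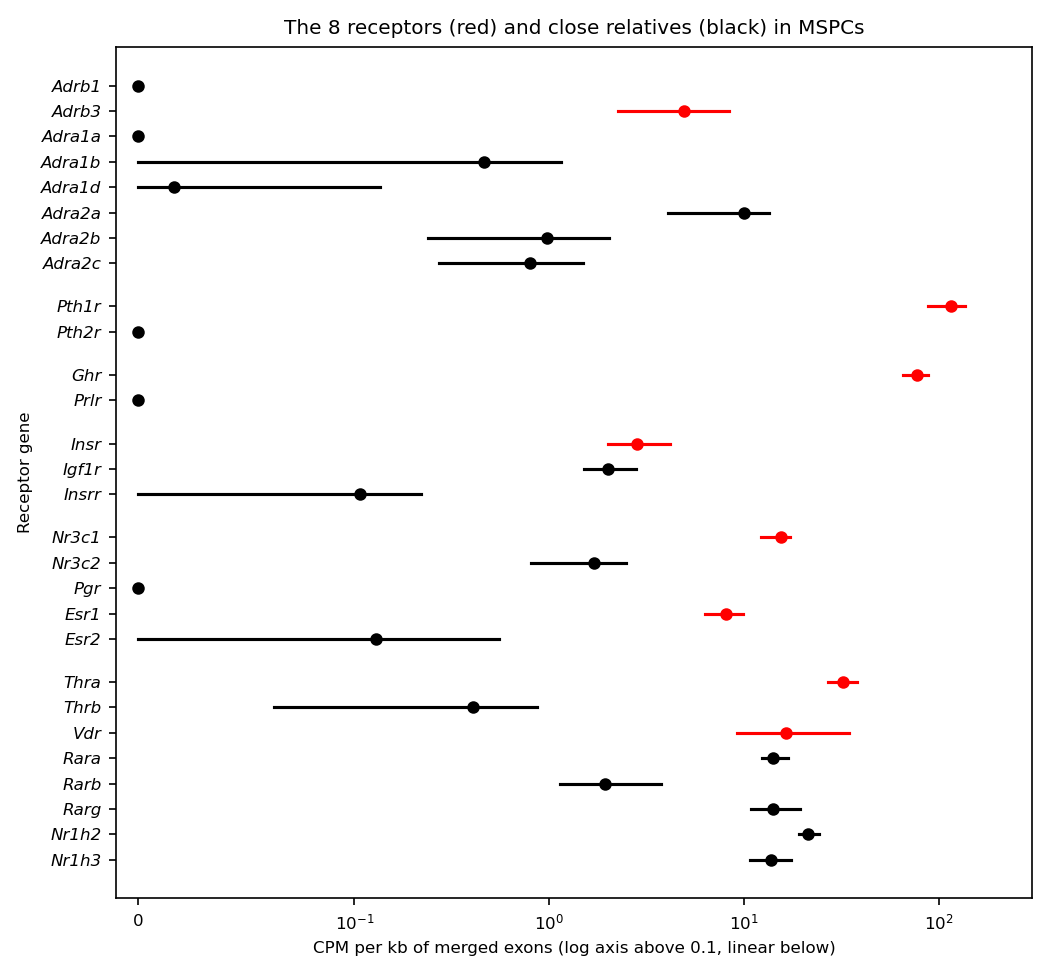
Mean level (point) and range over 8 libraries (line) of the 8 receptors (red) and of close relatives of them (black), in CPM per kb on an axis that is logarithmic above 0.1 and linear below. Adra2a lies at 10.01 against 4.94 for Adrb3, and Adrb1, Adra1a, Pgr, Pth2r and Prlr lie at 0.

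The comparison of cKO with CTR asks whether loss of Cxcr4 in hematopoietic cells goes with a different receptor level in MSPCs. No receptor passed the test. With edgeR's quasi-likelihood test, 0 of the 8 had a Benjamini-Hochberg adjusted p under 0.05, against 0% of all 14598 genes tested, and the adjusted p was 0.999 for each. At an unadjusted p under 0.05 there were also 0 of 8, against 4.43% of all genes. For 0 of 8 were the 4 cKO libraries all above or all below the 4 CTR libraries, against 2.61% of all genes. The median log2 fold change of the 8 was 0.05, with 5 above and 3 below 0, and that of all genes was -0.0013. The median size without sign was 0.15 for the receptors and 0.14 for all genes. In such bulk samples, fewer cells of a type and less RNA per cell cannot be told apart.

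Pth1r, the receptor for parathyroid hormone and its related peptide (chromosome 9, 110722085 to 110747145, minus strand, GRCm38 with GENCODE M21 genes, as for the others), was at 349, 257, 339 and 304 CPM in CTR1 to CTR4. In cKO1 to cKO4 it was at 398, 296, 397 and 348 CPM. The 2 highest libraries were both cKO, the lowest was CTR2, and the groups overlapped. Group means were 312 ± 41.8 and 359.6 ± 48.7 CPM in CTR and cKO (SD, n = 4). The log2 fold change was 0.20 with a standard error (SE) of 0.13 and a 95% interval of -0.09 to 0.50 (edgeR, unadjusted p = 0.153). It was nearly the same within both ranges of title numbers, at 0.20 in 26 to 32 and 0.21 in 67 to 86 as a difference of mean log2 CPM. With the range as a term in edgeR, the unadjusted p of Pth1r was 0.0483 and its adjusted p 0.920. It was the only one of these receptors with an unadjusted p under 0.05 in that fit, where 790 of all 14598 genes had such a p.

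Adrb3, the β3-adrenergic receptor (chromosome 8, 27225776 to 27250616, minus strand), had the lowest counts of the 8 genes. It was at 28.2, 7.64, 23.1 and 13.0 CPM in CTR1 to CTR4 and at 22.2, 10.8, 12.0 and 16.7 CPM in cKO1 to cKO4. CTR held both the highest and the lowest library. The log2 fold change was -0.22 (SE 0.39, 95% interval -1.09 to 0.65), an interval that spans 0.470 to 1.57 as a fold. Within the ranges of title numbers the differences had opposite signs, 0.43 in 26 to 32 and -0.65 in 67 to 86. The test of that difference between ranges gave an interaction of -0.999 (SE 0.57, edgeR unadjusted p = 0.115).

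Ghr, the growth hormone receptor (chromosome 15, 3317760 to 3583492, minus strand), was the most counted of the 8. Its level was 693, 698, 615 and 766 CPM in CTR1 to CTR4 and 589.9, 775, 672 and 799.5 CPM in cKO1 to cKO4. The cKO libraries held both ends of the range, and its log2 fold change was 0.03 (SE 0.12, 95% interval -0.23 to 0.30). Nr3c1, the glucocorticoid receptor (chromosome 18, 39410545 to 39519421, minus strand), was at 119.6, 117, 93.4 and 132 CPM in CTR1 to CTR4 and at 114, 126, 116 and 129 CPM in cKO1 to cKO4. The cKO values lay inside the CTR range, and the log2 fold change was 0.07 (SE 0.12, 95% interval -0.19 to 0.33).

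Vdr, the vitamin D receptor (chromosome 15, 97854425 to 97910630, minus strand), was at 51.9, 196, 69.6 and 94.8 CPM in CTR1 to CTR4. In cKO1 to cKO4 it was at 52.9, 109, 67.7 and 99.1 CPM. CTR2 stood far above the other 7 libraries, and the rest of both groups covered nearly the same range. The log2 fold change was -0.33 (SE 0.38, 95% interval -1.18 to 0.53), and it was 0.18 without CTR2. Thra, the thyroid hormone receptor α (chromosome 11, 98740638 to 98769006, plus strand), was at 165, 125, 156 and 125 CPM in CTR1 to CTR4 and at 162, 132, 175 and 148 CPM in cKO1 to cKO4. Both groups held lower and higher values that overlapped, and the log2 fold change was 0.11 (SE 0.13, 95% interval -0.18 to 0.40).

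Esr1, the estrogen receptor α (chromosome 10, 4611593 to 5005614, plus strand), was at 85.6, 134, 99.7 and 129.8 CPM in CTR1 to CTR4 and at 100.4, 127, 101 and 106 CPM in cKO1 to cKO4. The cKO libraries lay inside the CTR range, and the log2 fold change was -0.05 (SE 0.16, 95% interval -0.40 to 0.29). Insr, the insulin receptor (chromosome 8, 3122061 to 3279617, minus strand), was at 32.9, 49.3, 30.1 and 33.2 CPM in CTR1 to CTR4 and at 42.0, 57.3, 27.7 and 39.0 CPM in cKO1 to cKO4. CTR2 and cKO2 were the highest of their groups. Its log2 fold change was 0.19 (SE 0.23, 95% interval -0.32 to 0.70).

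**Figure D3:**
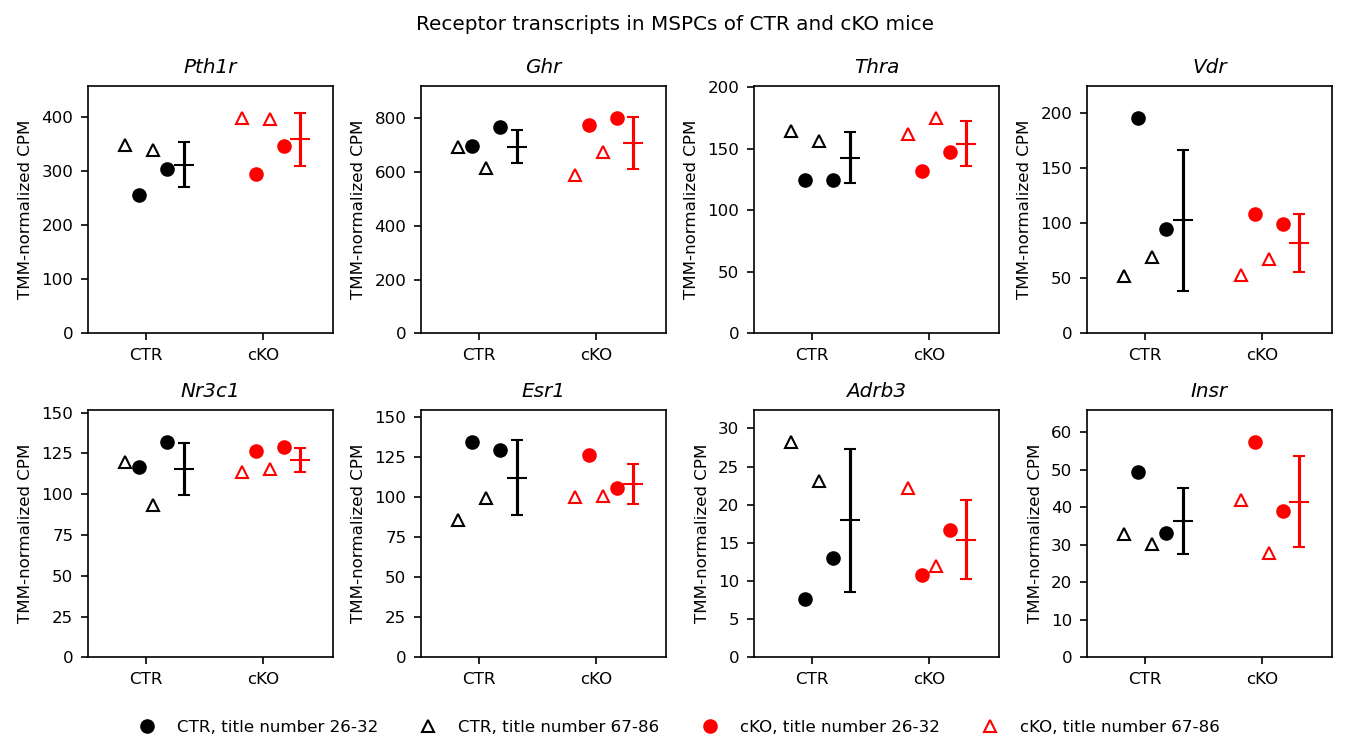
TMM-scaled CPM of each receptor in the 4 CTR (black) and 4 cKO (red) libraries, with filled circles for title numbers 26 to 32 and open triangles for 67 to 86, and bars for the mean ± SD of each group. The groups overlap in all 8 panels, and CTR2 stands out in Vdr at 196 CPM.

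As folds of cKO over CTR, the 95% intervals were 0.851 to 1.23 for Ghr, 0.878 to 1.25 for Nr3c1 and 0.940 to 1.41 for Pth1r. For Vdr and Adrb3 they reached from 0.441 to 1.44 and from 0.470 to 1.57, and folds within these bounds are compatible with the data in this fit. The fit had no term for the title number, so its intervals also hold the spread between the ranges. With the range as a term in edgeR, the log2 fold changes were -0.25 for Vdr and -0.09 for Adrb3 (unadjusted p = 0.303 and 0.784).

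The same libraries grouped by title number differed more. This comparison took the genotype as a covariate, and in it Vdr, Esr1 and Ghr were lower and Thra was higher in every library of 67 to 86 than in every library of 26 to 32. Those 4 of 8 receptors compare with 7.69% of all genes whose ranges did not overlap. At an unadjusted p under 0.05 there were 6 of 8, against 11.6% of all genes, with Pth1r, Adrb3 and Thra higher (5.1% of all genes) and Vdr, Esr1 and Ghr lower (6.5%). However, 0 of 8 passed a Benjamini-Hochberg adjusted p of 0.05 in edgeR, where 2 genes or 0.0137% did. DESeq2's likelihood ratio test called Vdr and Thra, and 342 of 14031 genes or 2.44%.

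Vdr had a mean of 125 CPM in the libraries with title numbers 26 to 32 and 60.5 CPM in those with 67 to 86. Its 4 values in 67 to 86 were 51.9, 52.9, 67.7 and 69.6 CPM, all below the 94.8, 99.1, 109 and 196 CPM of 26 to 32. The log2 fold change was -1.02 (SE 0.23, 95% interval -1.54 to -0.51, edgeR adjusted p = 0.189, DESeq2 adjusted p = 0.00168). The exact permutation p was 0.0286, the smallest that 4 against 4 libraries allow. The difference was -1.18 within CTR and -0.80 within cKO, and the log2 fold change was -0.73 without CTR2.

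Thra averaged 132 CPM in 26 to 32 and 165 CPM in 67 to 86. The log2 fold change was 0.31 (SE 0.08, 95% interval 0.13 to 0.50, edgeR adjusted p = 0.223, DESeq2 adjusted p = 0.0478), with 0.36 within CTR and 0.27 within cKO. Thra shares 263 exon bases with Nr1d1 on the opposite strand, which encodes the clock repressor Rev-erbα. Nr1d1, named here because of this overlap and after its values were seen, had 1196 to 4478 counts and a log2 fold change of 0.81 in the same direction (edgeR unadjusted p = 0.0154). The sources used here do not say whether strand was used in counting, and the part of the shared bases in the Thra counts was not tested.

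Esr1 averaged 124 CPM in 26 to 32 and 96.6 CPM in 67 to 86, a log2 fold change of -0.36 (SE 0.11). Ghr averaged 759.6 and 643 CPM in the same order, with -0.24 (SE 0.09). Pth1r averaged 301 and 371 CPM, with 0.30 (SE 0.09), and was alike within CTR (0.30) and cKO (0.31). These 3 had edgeR adjusted p values of 0.270, 0.350 and 0.271. Adrb3 averaged 12.0 and 21.4 CPM, with 0.81 (SE 0.32, edgeR adjusted p = 0.383), with differences of 1.36 within CTR and 0.28 within cKO. Insr (-0.43, SE 0.19) and Nr3c1 (-0.19, SE 0.10) had unadjusted p values of 0.0542 and 0.0903 in edgeR.

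**Figure D4:**
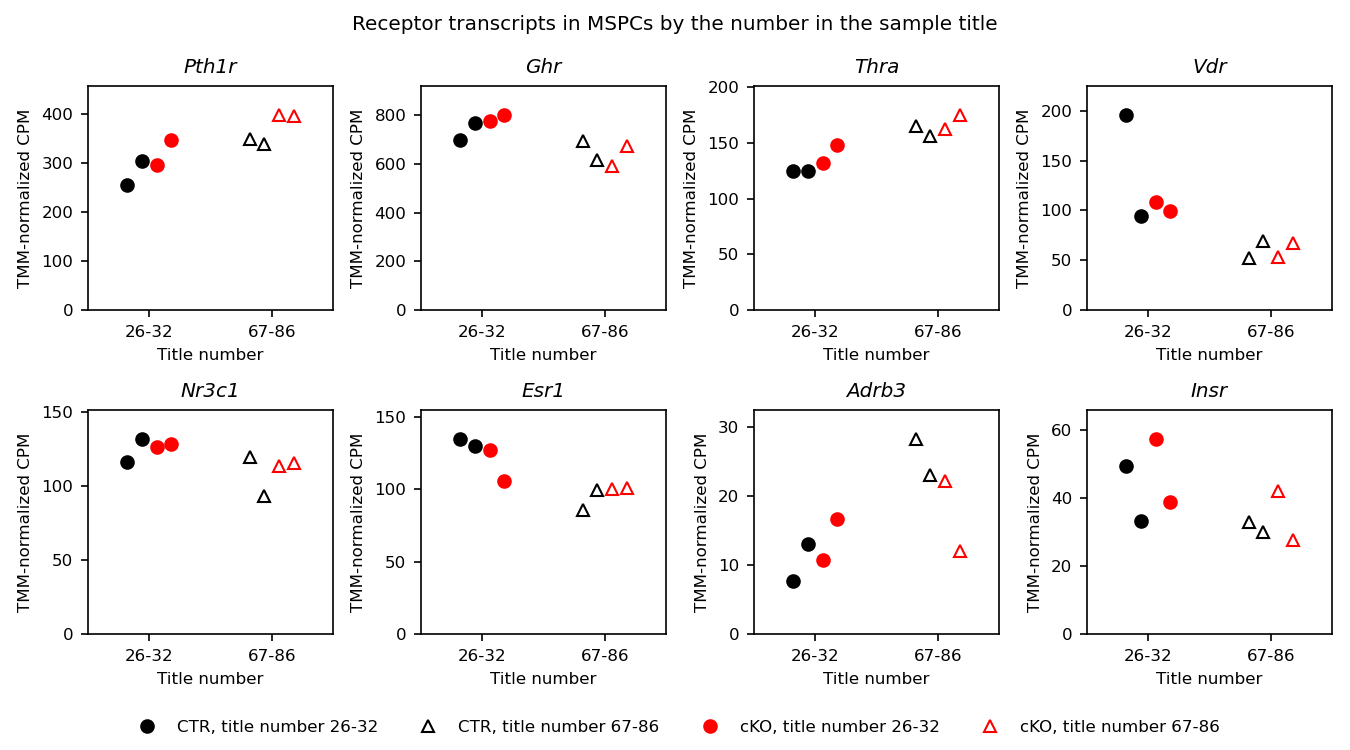
TMM-scaled CPM of each receptor by the range of the number in the sample title, 4 libraries in each (black CTR, red cKO). Vdr, Esr1 and Ghr lie lower and Thra higher in all libraries of 67 to 86 than in those of 26 to 32, with Vdr at 51.9 to 69.6 against 94.8 to 196 CPM.

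Other values moved with the title number as well. Osteoblast markers summed to 10882 to 14012 CPM in 26 to 32 and 7972 to 10624 CPM in 67 to 86, and smooth muscle markers to 58.3 to 77.1 and 43.8 to 54.2 CPM, without overlap (exact permutation p = 0.0286 for both lists). Of all genes, 7.69% did not overlap by title number. The osteoblast sum was nearly all Ibsp, and Des had the highest mean of the smooth muscle markers (39.2 CPM). At an unadjusted p under 0.05 in edgeR, 1 of 5 tested osteoblast markers and 0 of 3 tested smooth muscle markers were lower. The share of all genes was 6.5%. Hematopoietic markers summed to 56.5 to 147 and 143 to 241 CPM, with overlap (exact permutation p = 0.0571), and Hbb-bs had the highest mean of them (64.7 CPM). At an unadjusted p under 0.05 in edgeR, 2 of 4 tested hematopoietic markers were higher in 67 to 86, against 5.1% of all genes. Fewer genes had a count in 67 to 86. The part of these marker lists and of the number of genes with a count in the receptor values was not tested. Because both ranges hold 2 libraries of each genotype, the title number was balanced in the comparison of cKO with CTR. A test of whether the genotype difference itself differed between ranges found 0 of 8 receptors at an unadjusted p under 0.05 in edgeR, against 3.44% of all genes.

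**Figure D5:**
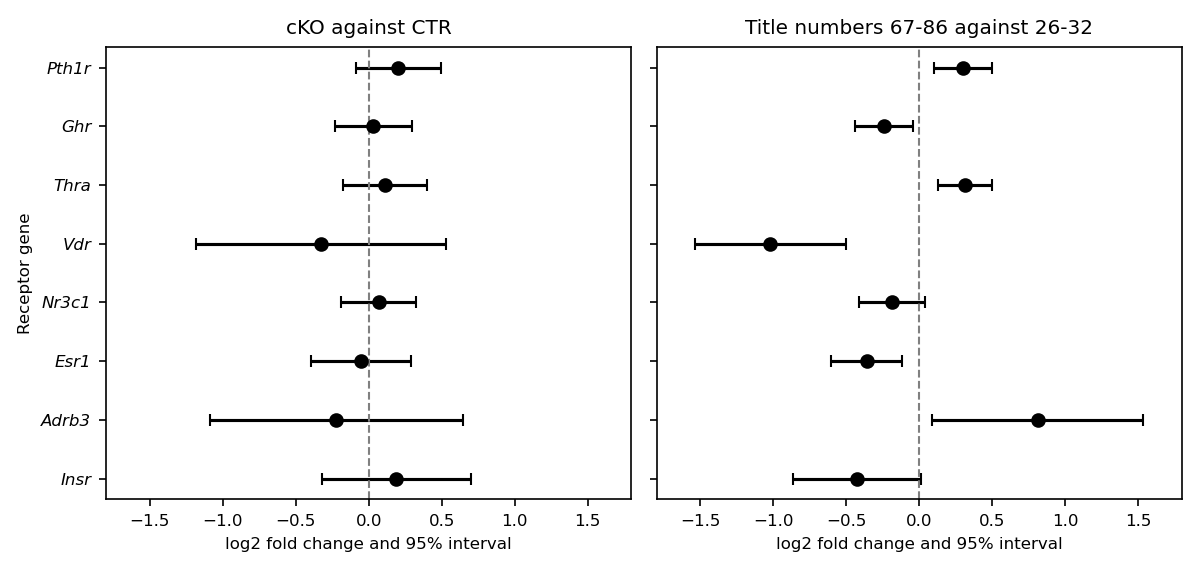
Log2 fold change (point) and 95% interval (bar) of each receptor from edgeR, for cKO against CTR on the left and for title numbers 67 to 86 against 26 to 32 on the right. All 8 intervals include 0 on the left, while on the right 6 do not, from -1.02 for Vdr to 0.81 for Adrb3.

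Genes around the receptors were read from 9 lists, which held 119 tested genes besides the 8 receptors. The lists cover genes that act with the receptors, their closest relatives (13 tested) and other hormone receptors (13 tested). Between genotypes 0 of the 119 had an adjusted p under 0.05 in edgeR, and 6 had an unadjusted p under 0.05, 2 higher and 4 lower, or 5.04% against 4.43% of all genes. Between the ranges of title numbers 17 of 119 had an unadjusted p under 0.05, 7 higher and 10 lower in 67 to 86, or 14.3% against 11.6% of all genes, and 0 had an adjusted p under 0.05.

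Downstream of Pth1r and Adrb3, the cAMP list had 27 of 33 genes tested. Between genotypes, 0 were higher and 2 lower at an unadjusted p under 0.05, with a median log2 fold change of -0.02. These were Nr4a2, an early response gene (-1.41, SE 0.46), and Pde4b, a cAMP phosphodiesterase (-1.72, SE 0.64), both at low level with means of 3.50 and 4.15 CPM in CTR and 1.32 and 1.26 CPM in cKO. The highest levels per length were those of Prkar1a, a regulatory subunit of protein kinase A (149.6 CPM per kb), and the adenylyl cyclase Adcy2 (104 CPM per kb), with log2 fold changes of -0.01 for both. By title number, 2 of 27 were higher and 1 lower at an unadjusted p under 0.05 in edgeR, against 5.1% and 6.5% of all genes. All 3, picked by this p, had ranges that did not overlap, as had 7.69% of all genes. Gnas, which encodes the stimulatory G protein α subunit, and Prkaca, a catalytic subunit of protein kinase A, had log2 values of 0.26 and 0.21 in 67 to 86 against 26 to 32. Rgs2, a regulator of G protein signaling, had -0.88 (SE 0.22) and the smallest unadjusted p of these 3.

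Around Nr3c1, all 17 genes of the glucocorticoid list were tested. Between genotypes 0 were higher and 1 lower at an unadjusted p under 0.05. This gene was Hsp90aa1, which encodes a form of the chaperone that holds the unliganded receptor. It was at 86.7 ± 10.01 and 67.2 ± 7.23 CPM in CTR and cKO (SD, n = 4) with all cKO libraries below all CTR libraries. Hsp90ab1, which encodes another form, was tested in the same list and did not have an unadjusted p under 0.05. Of all genes, 2.61% had genotype groups that did not overlap. The log2 fold change of Hsp90aa1 was -0.37 (SE 0.12, edgeR adjusted p = 0.999). Dusp1, a glucocorticoid-induced phosphatase, had -0.23 (SE 0.14). Errfi1 (259 CPM per kb) and Angptl4 (237 CPM per kb) had the highest levels of the list, with log2 fold changes of -0.01 and 0.35. By title number, 2 of 17 were higher and 3 lower at an unadjusted p under 0.05, against 5.1% and 6.5% of all genes. Angptl4 (0.72) and the co-chaperone Fkbp4 (0.36) had positive values, and the classical targets Sgk1 (-0.43) and Tsc22d3 (-0.65) and the inactivating enzyme Hsd11b2 (-1.21) had negative values.

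The growth hormone list (11 of 11 tested) had 0 genes at an unadjusted p under 0.05 between genotypes, and its median log2 fold change was -0.21. Socs2 (-0.81, SE 0.55) and Cish (-0.78, SE 0.58), both feedback inhibitors induced by Stat5, had the smallest p values of the list. Socs3 (188 CPM per kb) and Igf1 (63.2 CPM per kb) had the highest levels. By title number 2 of 11 were lower at an unadjusted p under 0.05, against 6.5% of all genes. Both lay without overlap below 26 to 32 in the libraries of 67 to 86, where 7.69% of all genes did not overlap in either direction. Igf1, the main effector of growth hormone, averaged 761 and 490.0 CPM (log2 fold change -0.64, SE 0.14, edgeR adjusted p = 0.192), and the receptor kinase Jak2 averaged 108 and 66.5 CPM (-0.70, SE 0.16, edgeR adjusted p = 0.201). Ghr had the same sign. Of the other genes named from this list, Cish (-0.57, SE 0.60) and Socs3 (-0.61, SE 0.28) had negative values by title number. Socs2 had a positive one (0.68, SE 0.61).

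In the insulin list, 18 of 20 genes were tested and 1 was higher and 0 lower between genotypes at an unadjusted p under 0.05. This was Slc2a4, the insulin-responsive glucose transporter, at 15.3 ± 3.13 and 22.7 ± 4.01 CPM in CTR and cKO (SD, n = 4), with a log2 fold change of 0.57 (SE 0.20) and overlapping groups. Pik3r1, a regulatory subunit of phosphoinositide 3-kinase, had -0.25 (SE 0.12). Akt1 and Shc1 had the highest levels, at 61.9 and 51.9 CPM per kb, with -0.05 and 0.06. By title number 1 of 18 was higher at an unadjusted p under 0.05, against 5.1% of all genes. This was the phosphatase Ptpn1 (0.48), which dephosphorylates the insulin receptor.

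Most genes of vitamin D and thyroid hormone handling were too low to test, with 5 of 16 tested and 5 at 0 in every library. Between genotypes 0 had an unadjusted p under 0.05. Spp1, a bone matrix gene responsive to vitamin D, stood at 941 CPM per kb (log2 fold change 0.07). The vitamin D 25-hydroxylase Cyp2r1 had 11 to 117 counts and a log2 fold change of 0.65 (SE 0.59). Crym, which binds thyroid hormone in the cytosol, averaged 13.0 CPM in 26 to 32 and 6.06 CPM in 67 to 86.

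The estrogen list had 4 of 12 genes tested, with 0 at an unadjusted p under 0.05 between genotypes. Gper1, a membrane estrogen receptor, had a log2 fold change of 0.49 (SE 0.30), and Wnt4 had -0.15 (SE 0.20). Igfbp4 (3394 CPM per kb) and Ctsd (233 CPM per kb) had the highest levels, with 0.13 and 0.06. By title number 1 of 4 was higher at an unadjusted p under 0.05, against 5.1% of all genes. This was Igfbp4 (0.40), a binding protein of insulin-like growth factors.

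The partners and coregulators of nuclear receptors (11 of 14 tested) had 0 genes at an unadjusted p under 0.05 in either comparison. Rxra, a partner of Vdr and Thra, was at 102 ± 24.0 and 129 ± 5.12 CPM in CTR and cKO (SD, n = 4), with every cKO library above every CTR library (log2 fold change 0.33, SE 0.16, edgeR adjusted p = 0.999). Such groups without overlap were found for 2.61% of all genes. Per length Rxra (21.2 CPM per kb) lay above Vdr in 7 of 8 libraries. Rxrb stood at 15.3 CPM per kb (0.08), and Med1, a coactivator subunit of the Mediator complex, had -0.26 (SE 0.15). Among the relatives of the 8 receptors, 1 of 13 tested had an unadjusted p under 0.05 between genotypes, Nr3c2 (0.72, SE 0.31). Adra2a averaged 58.1 ± 5.55 and 38.7 ± 16.4 CPM in CTR and cKO (SD, n = 4), a log2 fold change of -0.58 (SE 0.27). By title number 1 of 13 relatives was higher and 2 were lower at an unadjusted p under 0.05, against 5.1% and 6.5% of all genes. These were Nr1h3 (0.36), Nr3c2 (-0.68) and Thrb (-1.15). Thrb thus had the opposite sign to Thra.

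Of 36 other hormone receptors, 15 were at 0 in every library and 13 were tested. The leptin receptor Lepr, a marker of these cells, stood at 627 CPM per kb, 3.73 to 7.05 times Pth1r, and had a log2 fold change of 0.01 (SE 0.14). The adiponectin receptor Adipor1 was next at 37.3 CPM per kb (0.07). Agtr1a, an angiotensin II receptor, was at 8.93 ± 1.31 and 4.77 ± 1.49 CPM in CTR and cKO (SD, n = 4) without overlap (log2 fold change -0.90, SE 0.29, edgeR adjusted p = 0.999). Genotype groups did not overlap for 2.61% of all genes. Npr1, a natriuretic peptide receptor, had 0.45 (SE 0.22). By title number 1 of 13 was lower at an unadjusted p under 0.05, the melanocortin receptor Mc5r (-0.53), against 6.5% of all genes.

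For each receptor, the gene with the most similar profile over the 8 libraries was sought among 9398 tested genes whose mean CPM was 10 or more, by the root mean square difference of mean-centered log2 CPM. These were Lancl1 for Nr3c1 (0.05), Nosip for Pth1r (0.06), Agt for Thra (0.05), Gosr1 for Ghr (0.06) and Snx27 for Esr1 (0.06). The more variable receptors had less similar neighbors, Chd8 for Insr (0.13), Rgs2 for Vdr (0.23) and Pcyox1l for Adrb3 (0.26), where the receptors' own deviations were 0.34, 0.59 and 0.60. Rgs2 averaged 51.1 CPM in 26 to 32 and 27.4 CPM in 67 to 86. Every gene has a nearest profile among so many candidates, and these are given as a description.

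Besides Thra, 2 of the 8 receptors share exon bases with a gene on the other strand. Adrb3 shares 839 bases with the antisense gene Gm45470, which had 0 to 71 counts against 250 to 873 for Adrb3. Pth1r shares 95 bases with Myl3, which had 0 to 43 counts against 8397 to 13399 for Pth1r.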

How the data were processed

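RNA of MSPCs from 4 CTR and 4 cKO mice was sequenced after poly(A) selection. Per the methods and the processing notes, the authors aligned reads to mm10 (GRCm38) with HISAT2 and counted them per gene with HTSeq (versions not given in the sources used here), and they deposited raw counts. The values are whole numbers, among the low ones of which odd numbers are more frequent than even ones, for a reason not given in the sources used here. Of 52636 genes, 147 were not matched to GENCODE M21 and kept their identifiers.

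Counts were scaled by TMM, and edgeR 4.0.16 (R 4.3.3, glmQLFit and glmQLFTest, Benjamini-Hochberg, 0.05) tested the 14598 genes that no library lacked over all 8 libraries, without covariates for genotype and with genotype as a covariate for the title number. The interaction was a separate fit. The study's own test was DESeq2 with a batch that the sources used here do not describe. Differences within groups used log2(CPM + 0.01). Exact permutation tests were two-sided over 70 assignments. The 8 replicates are separate mice. Levels used merged exon lengths of GENCODE M21. Genes were named by a rule: the 8 receptors, their relatives, the 2 smallest p values and 2 highest levels of each list, the nearest profiles and the sorting markers. List genes with an unadjusted p under 0.05 by title number were named after their values were seen. The receptors and lists were chosen with earlier results of these data known. Some listed genes that this rule names are not reported here. The estrogen list holds 13 genes, of which Sts was not matched. The labels do not say that replicate numbers pair the samples, and the main test did not pair them. Deviations of same-numbered CTR and cKO libraries correlated at 0.0536 to 0.167, and those of other pairs at -0.147 to 0.126. For 3 of 4 CTR libraries, the best correlated cKO library had the same number. Same-numbered libraries also lay in the same range of title numbers, so that a pairing and this range cannot be told apart. Alternatives were DESeq2 size factors, total counts, filterByExpr or no filter, DESeq2 1.42.0, limma-voom (limma 3.58.1), the title number range as a term, a replicate block, each library left out and the longest transcript as length.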

Additional observations from a re-analysis of the deposited data

Results flagged for a closer look

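Insr in CTR replicate 2 stood apart from the other 3 CTR libraries, at 49.3 against 30.1 to 33.2 CPM, with a gap to the nearest that was 0.840 of the range of the group. This exceeds Dixon's 95% critical value for 4 samples. Chance marks about 1 in 20 groups, and 16 groups (8 receptors in CTR and in cKO) were examined, so that 0.8 would be marked by chance.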

How the results depend on the processing

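The comparison of cKO with CTR had 0 of 8 receptors past an adjusted p of 0.05 under every alternative run. Over all genes, the main edgeR test called 0, and edgeR with filterByExpr or with no filter called 1 each. DESeq2's likelihood ratio test called 22, and the same test with the title number range as a term 47. The number of receptors with an unadjusted p under 0.05 was 1 instead of 0 with the title number range as a term, and 1 with a replicate block, which was Pth1r in both. Of all 14598 genes, 790 and 812 had such a p in these fits. Under the replicate block the edgeR p of Pth1r was 0.0232 (adjusted p = 0.880). Leaving out each library in turn gave 0 to 1 receptors, the 1 being Pth1r without cKO replicate 2 (0.28), where 724 of 14650 genes had such a p. In 3 of 4 pairs a CTR library correlated best with the cKO library of its number, a hint from the data only. The replicate block changed no other call. With all libraries kept, 0 of the log2 fold changes changed sign. With 1 library left out, 9 of 64 values did: the ranges were -0.024 to 0.14 for Nr3c1 (negative without CTR3), -0.48 to 0.081 for Adrb3 (positive without CTR1), -0.16 to 0.039 for Esr1 (positive without CTR2 at 0.039 or CTR4 at 0.022), -0.030 to 0.11 for Ghr (-0.025 without CTR3, -0.014 without cKO2, -0.030 without cKO4), -0.0073 to 0.36 for Insr (negative without cKO2) and -0.55 to 0.18 for Vdr (positive without CTR2). These 9 values had unadjusted p values of 0.527 or more in edgeR.

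By title number, the receptors past an adjusted p of 0.05 were 0 in edgeR and 2 in DESeq2's likelihood ratio test (Vdr -1.02, Thra 0.32). Calls over all genes were 2 in the main edgeR test and 342 in DESeq2's. The cause was not tested. The number with an unadjusted p under 0.05 was 4 to 6 over the left-out libraries (4 without CTR3), and no sign changed. Of all genes tested, 1262 (without cKO2) to 1831 (without cKO4) had such a p. These unadjusted counts were added after the data were seen. With the longest transcript as length, levels were 18.4 for Nr3c1, 146 for Pth1r, 17.4 for Esr1, 168 for Ghr, 4.16 for Insr and 60.6 CPM per kb for Thra, since shorter lengths raise them.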
